A study of Homo sapiens with 4 samples.

Results

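The human genome holds a small set of functional genes for the U4 and U5 small nuclear RNAs (snRNAs), and 7 of them were measured here by small RNA sequencing. They were RNU4-1 and RNU4-2 for U4, and RNU5A-1, RNU5B-1, RNU5D-1, RNU5E-1 and RNU5F-1 for U5. They were found by gene symbol, looked up from the Ensembl identifier of each row, among 7062 small RNA features in each deposited table, and the many pseudogenes of both families were set apart. HEK293T, a human embryonic kidney cell line that some of the labels call HEK293, was transfected transiently with 1.5 µg of plasmid per well for a form of RPB1 that resists α-amanitin, a toxin of RNA polymerase II (Pol II). RPB1 is the largest part of that enzyme, and its C-terminal domain (CTD) had 52 heptad repeats in both groups. In 52X WT the repeats were wild type, and in 52X T4A they carried the T4A change, in which the threonine at the fourth place of the heptad is an alanine. All cells, controls included, then spent 72 h under α-amanitin selection at 2.5 µg/ml to remove cells without the plasmid, and each group had 2 libraries of single-end 50 bp reads that the series describes as biological replicates.

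U4 and U5 are parts of the spliceosome, the machine that cuts introns out of pre-mRNA. U4 arrives base-paired to U6 and keeps it inactive until the pairing is undone, and U5 brings the exon ends together through a loop near its middle that contacts both. U4 and U5 are transcribed by Pol II and are trimmed at the 3′ end by the Integrator complex, whereas U6 is made by Pol III. Both U4 and U5 carry a short uridine-rich site on which a ring of Sm proteins assembles.

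The U4 sequences are shown first because close copies limit how far single genes can be told apart in reads of at most 50 bases. They are the GENCODE transcripts with the same Ensembl identifiers and the same lengths as in the tables, written as DNA, 5′ to 3′. Capitals mark the Sm site.
RNU4-1: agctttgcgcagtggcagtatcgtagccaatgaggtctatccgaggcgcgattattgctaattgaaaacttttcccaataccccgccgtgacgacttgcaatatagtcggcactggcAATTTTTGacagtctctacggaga
RNU4-2: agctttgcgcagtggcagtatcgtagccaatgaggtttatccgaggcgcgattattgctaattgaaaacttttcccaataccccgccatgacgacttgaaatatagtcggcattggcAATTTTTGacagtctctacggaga

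The U4 genes are 141 bases long and were identical at 97.2% of positions. Counted from the 5′ end, RNU4-2 differed from RNU4-1 by C37T, G88A, C99A and C113T, with the base of RNU4-1 first. The U5 genes run from 116 to 120 bases and part mainly in their later bases. RNU5A-1 and RNU5B-1 differed by 1 substitution in the first 60 bases and by 6 after them. RNU5E-1 differed from RNU5B-1 by 1 substitution in the first 60 bases and by 10 after them, besides 4 gap positions. RNU5D-1 and RNU5F-1 stood farther off. To RNU5A-1, RNU5B-1 and RNU5E-1, identity was 81.9% to 82.5% for RNU5D-1 and 77.7% to 82.9% for RNU5F-1. To each other they were 77.8% identical.

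The Sm site motif AATTTTTG was searched on the RNA strand and on its reverse complement in the U4 genes and in all table features of 100 to 150 bases with a GENCODE sequence. The motif was set as the U4 site before the search, so that finding it in the U4 genes is not a result. Both U4 genes held it on the RNA strand, as did 2.29% of those features (58 of 2537), of which 21 have no U4 or U5 name. None of the U5 genes held this exact motif on either strand. On either strand the share was 3.39%.

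Windows of 20, 30, 40 and 50 bases were slid along each gene and looked up in the other table features with a sequence (4840 of 7062 features had one), and not in the rest of the genome. At 20 bases, 80.3% of the windows of RNU4-1 and 79.5% of those of RNU4-2 occurred in another feature, against 22.4% for RNU5F-1. At 50 bases the shares were 13.04% for RNU4-1 and 1.09% for RNU4-2. They were 13.4% for RNU5A-1 and for RNU5B-1, 23.9% for RNU5D-1 and 22.5% for RNU5E-1, and RNU5F-1 shared no window of that length. How reads that match several loci were counted, and which part of each RNA the reads came from, was not analysed here.

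**Figure D1:**
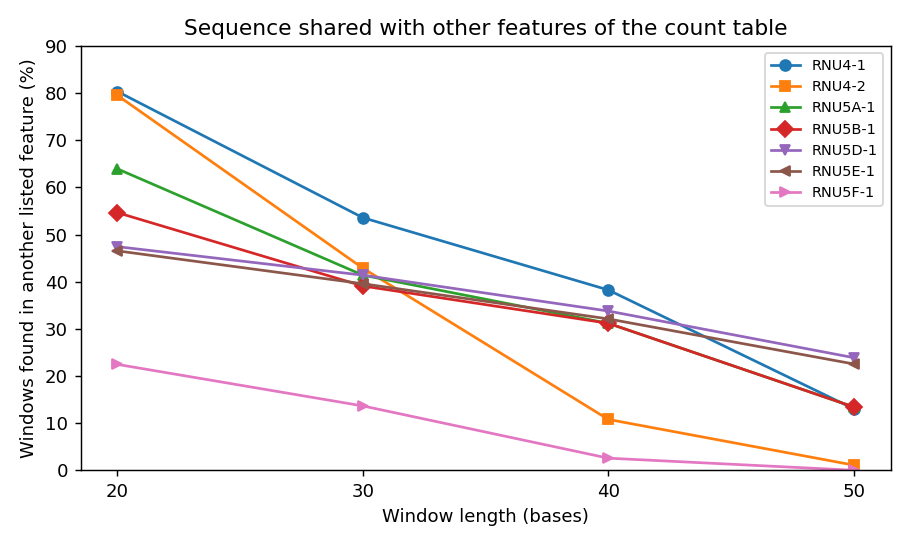
Share of sequence windows (y axis, %) of each U4 and U5 gene that also occur in another feature of the count table, by window length (x axis, bases). All 7 lines fall with length. The U4 genes start at 80.3% and 79.5% at 20 bases, and RNU5F-1 is the lowest line at each of the 4 lengths.

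Coordinates are those of the deposited tables, in hg38. RNU4-2 (ENSG00000202538.1, chr12:120291763-120291903) and RNU4-1 (ENSG00000200795.1, chr12:120293097-120293237) lie on the minus strand with 1193 bases between them. RNU5A-1 (ENSG00000199568.1, chr15:65296051-65296166) and RNU5B-1 (ENSG00000200156.1, chr15:65304677-65304792) lie on the plus strand, 8510 bases apart. RNU5F-1 (ENSG00000199377.1, chr1:44721786-44721902) and RNU5D-1 (ENSG00000200169.1, chr1:44731055-44731170) lie on the minus strand, 9152 bases apart. RNU5E-1 (ENSG00000199347.1, chr1:11908152-11908271) is on the plus strand, 1536 bases from the pseudogene RNU5E-4P. Each gene is a single exon of its own. In the GENCODE annotation RNU5A-1 lies within an intron of PARP16 and RNU5F-1 within an intron of ARMH1, each on the opposite strand, and RNU5E-1 overlaps an exon of a long noncoding RNA on its own strand. The other 4 overlap no annotated gene.

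The libraries held between 16180790 and 27370127 counts, and U4 and U5 took a very small part of them. The 2 U4 genes held 96 and 125 counts in 52X T4A and 164 and 90 in 52X WT, for replicates 1 and 2. This was between 0.000457% (Wilson 95% interval 0.000383% to 0.000544%) and 0.00101% (0.000869% to 0.00118%) of all counts. The 5 U5 genes held 528 and 1103 counts in 52X T4A and 1138 and 603 in 52X WT, between 0.00315% (0.00291% to 0.00341%) and 0.00703% (0.00663% to 0.00745%). These intervals cover counting error only. Across all tested features the libraries of 52X WT stood farther apart than those of 52X T4A, with an SD of the log2 ratio between replicates of 0.61 against 0.40. A further 10 miRNA genes typical of other cell types (liver, muscle, blood, nerve) were looked at as a check of the cell line. Without MIR9-1, a neural miRNA gene at 4214 to 5331 CPM (counts divided by the scaled library size, per 1000000), the other 9 summed to 45.1 and 53.1 CPM in 52X T4A and to 20.5 and 20.6 CPM in 52X WT. The muscle gene MIR1-1 made up most of this, MIR144 was at 0 in replicate 1 of each group, and what part these have in any difference between the groups was not tested. Markers of kidney cells were not examined.

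Per length, U5 genes spanned the highest and the lowest levels of the 7. Levels are given as CPM, each library scaled by its total and a trimmed mean of M-values (TMM) factor, and divided by gene length in kilobases for comparisons between genes. Over the 4 libraries RNU5B-1 had 150.1 ± 98.5 CPM per kilobase (SD, n = 4), RNU5A-1 112.2 ± 48.9, RNU5F-1 68.7 ± 37.9 and RNU5E-1 44.7 ± 10.1. RNU4-2 followed with 24.6 ± 12.9, RNU4-1 with 21.6 ± 10.2 and RNU5D-1 with 6.42 ± 2.12. The order was the same in 3 libraries, and in 52X T4A replicate 2 RNU5E-1 stood above RNU5F-1. The means of neighbours in this order differed by less than the larger of their SDs, except that RNU4-2 was below RNU5E-1, and RNU5D-1 below RNU4-1, by more than either SD. RNU5B-1 was nonetheless above RNU5A-1 in each of the 4 libraries.

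**Figure D2:**
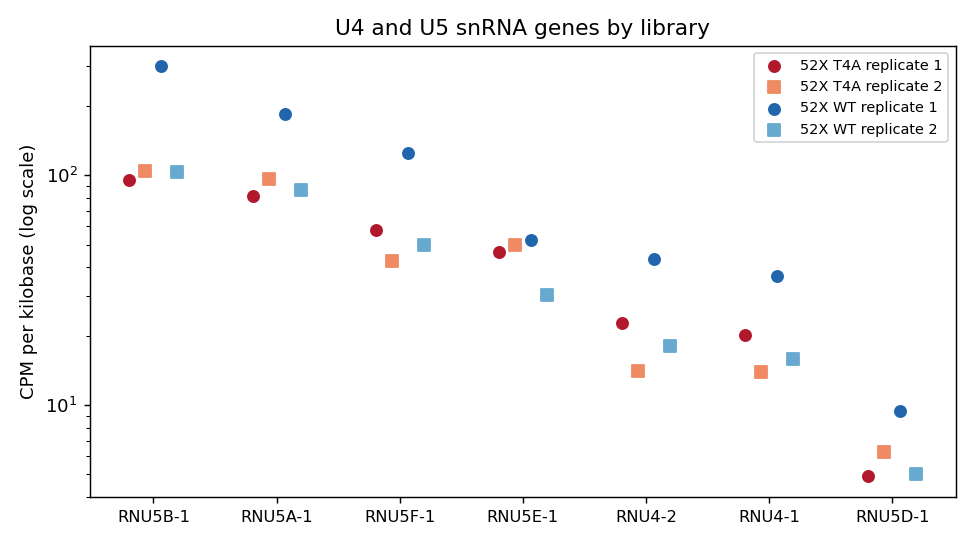
Level of each U4 and U5 gene (y axis, CPM per kilobase, log scale) in each of the 4 libraries (points, coloured by library), genes ordered by mean level. 52X WT replicate 1 is the highest point for all 7 genes, and its RNU5B-1 value of 297.7 is the highest in the plot.

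The question put to the libraries was whether U4 and U5 counts differed between cells on the T4A CTD and cells on the wild-type CTD. The reads are shorter than these genes, and whether their counts follow the amount of full-length RNA was not tested. No U4 or U5 gene passed the test. All 7 had enough counts to be tested, 6 had fitted values below 0 and RNU5E-1 above it, and the range of CPM in 52X T4A overlapped that in 52X WT for all 7. The test was the quasi-likelihood test of edgeR over 1480 features, with Benjamini-Hochberg adjustment, and a feature was called at an adjusted p below 0.05 with a fold change above 1.5. Of all features tested, 0.135% were called, namely MIR34C and MIR203B, which are named here after their values were seen. At an unadjusted p below 0.05 in this fit none of the 7 genes passed, against 10.3% of all features tested. DESeq2 called none of them, although RNU5B-1 had an unadjusted DESeq2 p of 0.0327 (adjusted p = 0.366). With no filter on low counts, the unadjusted edgeR p of RNU5B-1 was 0.0108 (adjusted p = 0.277). The groups did not overlap for 21.2% of features on the lower side and for 18.9% on the higher side. In bulk RNA, fewer cells holding an RNA and less of it per cell cannot be told apart.

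RNU5B-1 had the largest fitted difference of the 7. It encodes the most abundant U5 variant in these libraries, with counts of 175 and 382 in 52X T4A and 504 and 225 in 52X WT. The corresponding levels were 11.1 and 12.1 CPM in 52X T4A and 34.5 and 11.95 CPM in 52X WT. A single library was high, since 52X WT replicate 2 lay between the 52X T4A libraries. The fitted log2 fold change was -1.0 ± 0.47 (SE, 95% interval -2.05 to 0.05, n = 2 per group, edgeR adjusted p = 0.467).

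RNU5A-1, the variant most alike in sequence to RNU5B-1, had 149 and 352 counts in 52X T4A and 313 and 189 in 52X WT. As CPM these were 9.41 and 11.1 against 21.4 and 10.0. Again only 52X WT replicate 1 stood above the 52X T4A libraries, and the log2 fold change was -0.61 ± 0.41 (SE, 95% interval -1.52 to 0.31, n = 2 per group, edgeR adjusted p = 0.573).

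RNU5F-1, which has a divergent 5′ end, had 107 and 157 counts in 52X T4A and 213 and 110 in 52X WT. Its levels were 6.76 and 4.97 CPM in 52X T4A and 14.6 and 5.84 CPM in 52X WT. The pattern was that of RNU5B-1 with a wider spread between the 52X T4A libraries, at a log2 fold change of -0.80 ± 0.46 (SE, 95% interval -1.83 to 0.23, n = 2 per group, edgeR adjusted p = 0.499).

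RNU5D-1 was the rarest gene, with 9 and 23 counts in 52X T4A and 16 and 11 in 52X WT. These were 0.569 and 0.728 CPM against 1.10 and 0.584 CPM, again with 52X WT replicate 2 between the 52X T4A libraries. Its log2 fold change was -0.32 ± 0.52 (SE, 95% interval -1.49 to 0.85, n = 2 per group, edgeR adjusted p = 0.855), which leaves room for a difference of more than 1 log2 unit in the lower direction.

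RNU5E-1 was the exception. It had 88 and 189 counts in 52X T4A and 92 and 68 in 52X WT, or 5.56 and 5.99 CPM against 6.30 and 3.61 CPM. Here the library 52X WT replicate 1 was only 1.25 times the mean of the other 3, against 1.75 to 2.95 times for the other 6 genes. The log2 fold change was 0.23 ± 0.38 (SE, 95% interval -0.62 to 1.08, n = 2 per group, edgeR adjusted p = 0.856).

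The U4 genes gave near-equal values. RNU4-2 had 51 and 63 counts in 52X T4A and 89 and 48 in 52X WT, which were 3.22, 2.0, 6.10 and 2.55 CPM in that order. RNU4-1 had 45 and 62 counts in 52X T4A and 75 and 42 in 52X WT, which were 2.84, 1.96, 5.14 and 2.23 CPM. In neither gene did the groups separate, since 52X WT replicate 2 again lay between the 52X T4A libraries. The log2 fold changes were -0.74 ± 0.48 for RNU4-2 (SE, n = 2 per group, edgeR adjusted p = 0.552) and -0.62 ± 0.46 for RNU4-1 (SE, n = 2 per group, edgeR adjusted p = 0.590). RNU4-2 took 52.8% of the counts of the pair over all libraries (251 of 475, Wilson 95% interval 48.3% to 57.3%), and between 50.4% and 54.3% in single libraries. The interval covers counting error only. How reads that match both genes were counted is not known here, and whether this split follows the levels of the genes was not tested.

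**Figure D3:**
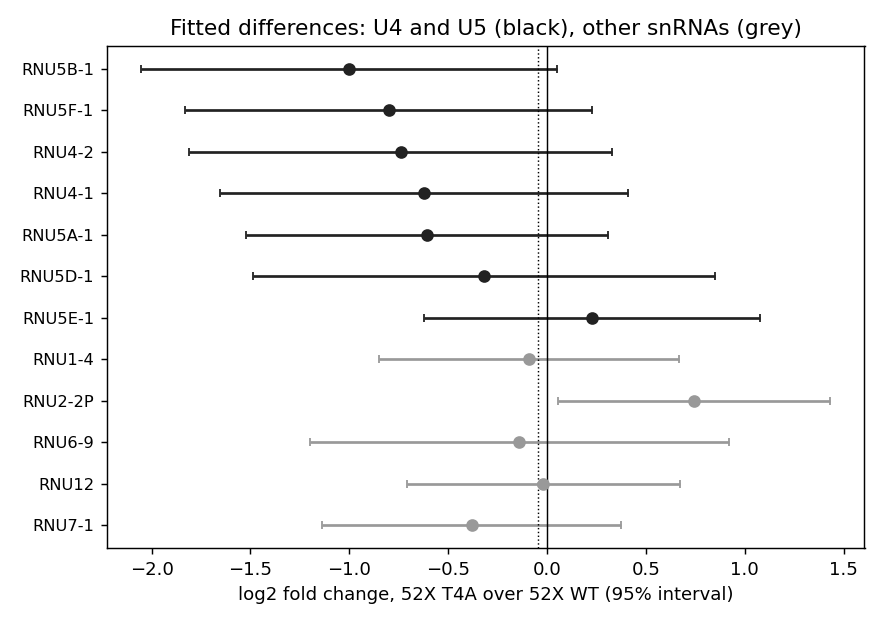
Fitted log2 fold change of 52X T4A over 52X WT (x axis, points) with its 95% interval (bars) for the 7 U4 and U5 genes in black and the most abundant gene of the U1, U2, U6, minor spliceosome and U7 lists in grey. The dotted line is the median of all tested features, -0.05. All 7 black intervals include 0, as RNU5B-1 does with an upper end of 0.05.

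The library 52X WT replicate 1 was the highest of the 4 for 7 of 7 U4 and U5 genes, against 37.4% of all tested features (554 of 1480). Its values were 1.75 to 2.89 times those of 52X WT replicate 2, while replicate 1 over replicate 2 in 52X T4A ran from 0.781 to 1.61. The comparison of the groups rested on which 52X WT library was used. Without 52X WT replicate 2, the fitted log2 fold changes were -1.57 for RNU5B-1, -1.32 for RNU5F-1, -1.25 for RNU4-2 and -1.12 for RNU4-1. RNU5A-1 was at -1.05 and RNU5D-1 at -0.72, and RNU5E-1 turned to -0.12. That fit took 52X WT from 1 library, assumed to vary like the others. Without 52X WT replicate 1, RNU5B-1 was at -0.13 and RNU5D-1 turned to 0.10.

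**Figure D4:**
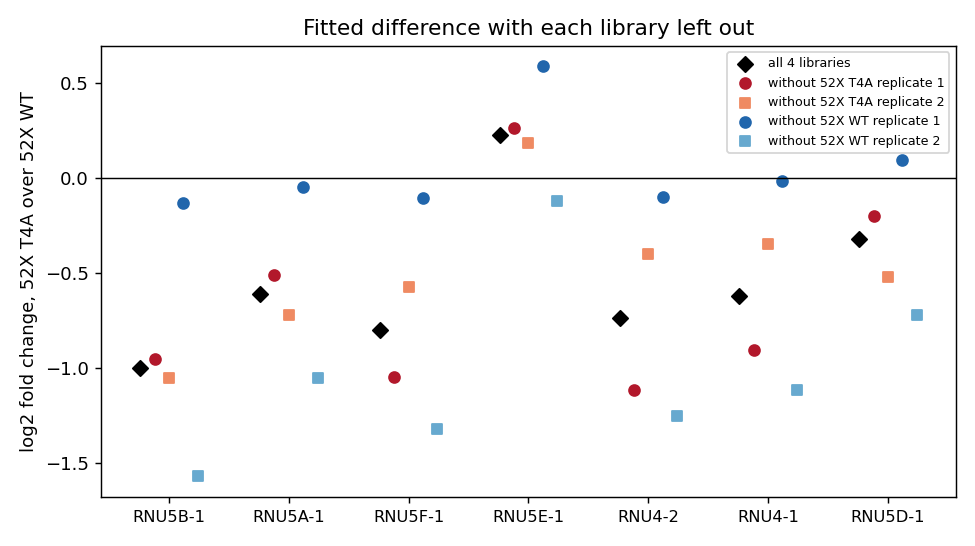
Fitted log2 fold change of 52X T4A over 52X WT (y axis) for each gene with all 4 libraries (black) and with each library left out (coloured). Leaving out 52X WT replicate 1 brings 6 of the 7 genes to between -0.13 and 0.10, and leaving out 52X WT replicate 2 moves all 7 below 0.

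Summed over their genes, U4 and U5 showed near-equal group differences, and neither passed the test. Summed U4 was 6.07 and 3.96 CPM in 52X T4A and 11.2 and 4.78 CPM in 52X WT, that is 5.01 ± 1.49 against 8.01 ± 4.57 (mean ± SD, n = 2 per group, exact two-sided permutation p = 0.667). Summed U5 was 33.4 and 34.9 CPM in 52X T4A and 77.99 and 32.0 CPM in 52X WT, that is 34.1 ± 1.11 against 55.0 ± 32.5 (mean ± SD, n = 2 per group, exact two-sided permutation p = 1.0). With 2 libraries against 2, no such test can give a p below 0.333. The log2 ratios of the group means were -0.68 for U4 and -0.69 for U5, each close to its replicate SD of 0.69 and 0.64. Without 52X WT replicate 1 they became 0.068 and 0.092.

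The ratio of the families needs no scaling between libraries. There were 5.50 and 8.82 U5 counts per U4 count in 52X T4A and 6.94 and 6.70 in 52X WT, or 6.64, 10.7, 8.40 and 8.10 per base of gene length. The 52X T4A libraries lay on either side of the 52X WT libraries. On the log2 scale the mean of U4 over U5 came to -2.80 ± 0.48 for 52X T4A against -2.77 ± 0.04 for 52X WT (SD, n = 2 per group, exact two-sided permutation p = 1.0).

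In the makeup of the U5 counts, the groups did not overlap for RNU5E-1 and RNU5B-1. These shares are also free of scaling, since each is taken within 1 library. Non-overlap is common with 2 libraries a group. In CPM it held for 21.2% of all tested features on the lower side and for 18.9% on the higher side. RNU5E-1 held 16.7% (Wilson 95% interval 13.7% to 20.1%) and 17.1% (15.03% to 19.5%) of U5 counts in 52X T4A, and 8.08% (6.64% to 9.81%) and 11.3% (8.99% to 14.1%) in 52X WT. Both 52X T4A libraries were above both 52X WT libraries, although the counting interval of 52X WT replicate 2 overlapped that of 52X T4A replicate 1, with means of 16.9% ± 0.33 and 9.68% ± 2.26 (SD, n = 2 per group). The difference of 7.22 percentage points was larger than the replicate SD of 1.61, and the exact two-sided permutation p was 0.333, the smallest it can be. RNU5B-1 stood the other way, with 44.3% (41.4% to 47.2%) and 37.3% (33.5% to 41.2%) in 52X WT against 33.1% (29.3% to 37.3%) and 34.6% (31.9% to 37.5%) in 52X T4A. The means were 33.9% ± 1.05 in 52X T4A and 40.8% ± 4.93 in 52X WT (SD, n = 2 per group, exact two-sided permutation p = 0.333), and the counting intervals of 52X WT replicate 2 overlapped those of both 52X T4A libraries. Shares of 1 total are not independent, and a larger share of one leaves less for the rest.

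RNU5A-1 made up 28.2% and 31.9% of U5 counts in 52X T4A and 27.5% and 31.3% in 52X WT. RNU5F-1 made up 20.3% and 14.2% against 18.7% and 18.2%, and RNU5D-1 1.70% and 2.09% against 1.41% and 1.82%. The groups overlapped for these 3 variants. Set against each other, there were 1.99 and 2.02 RNU5B-1 counts per RNU5E-1 count in 52X T4A and 5.48 and 3.31 in 52X WT. Adding the named U5 pseudogenes to the functional gene of the same letter, an alternative chosen after the data were seen, left RNU5E at 24.5% and 21.9% in 52X T4A against 13.3% and 17.6% in 52X WT. RNU5B was then at 29.3% and 32.0% against 40.6% and 33.6%. RNU5D was at 1.91% and 1.77% against 1.71% and 1.65%, so that its groups no longer overlapped. Those of RNU5A and RNU5F still did. Leaving out each library in turn gave a difference for RNU5E-1 between 5.62 and 8.82 percentage points, and that for RNU5B-1 between -10.4 and -3.43.

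**Figure D5:**
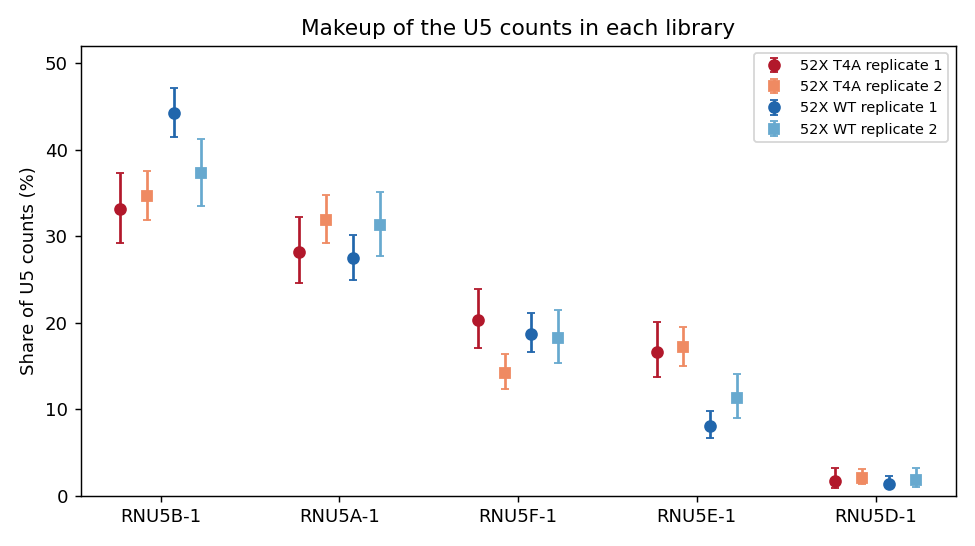
Share of the U5 counts (y axis, %) held by each U5 gene in each of the 4 libraries (points, with Wilson 95% intervals for counting error as bars). RNU5E-1 sits at 16.7% and 17.1% in 52X T4A, above 8.08% and 11.3% in 52X WT, and RNU5B-1 sits lower in 52X T4A than in 52X WT.

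Features named as U4 pseudogenes held more counts than the functional genes. At 20 bases, 80.3% of the windows of RNU4-1 and 79.5% of those of RNU4-2 occurred in another feature. Whether the reads counted at the pseudogenes came from them or from the functional genes was not tested. The 86 named U4 pseudogenes summed to 160 and 205 counts in 52X T4A and 256 and 182 in 52X WT, which was 61.0% to 66.9% of all U4 counts, and 44 of them were at 0 in every library. Of the 6 that could be tested none was called, 5 were below 0 and the median log2 fold change was -1.05, beside -0.05 for all tested features. As for the functional genes, 52X WT replicate 1 was the highest library for 5 of the 6, against 37.4% of all tested features. How far reads could be told apart between them was not analysed, so that these may not be 6 separate measurements. In 3 of the 6 the 52X T4A libraries lay below both 52X WT libraries, which held for 21.2% of all tested features. The most abundant, RNU4-46P, had 19 and 26 counts in 52X T4A and 41 and 27 in 52X WT, or 1.20 and 0.823 CPM against 2.81 and 1.43 CPM, without overlap of the groups (edgeR log2 fold change -1.08 ± 0.47, SE, adjusted p = 0.467). For U5 the 26 named pseudogenes held only 11.6% to 17.3% of the family's counts. Of 4 tested, none was called, 2 were above 0 and 2 below. RNU5E-4P, the most abundant, had 45 and 41 counts in 52X T4A and 53 and 37 in 52X WT.

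The other spliceosomal snRNAs were read beside them. In the U1 list, whose RNAs recognise the start of introns, 18 of 25 genes were tested, 2 had fitted values above 0 and 16 below, and none was called, with a median log2 fold change of -0.09. RNU1-4, the most abundant, had 28.9 and 23.1 CPM in 52X T4A and 33.7 and 21.6 in 52X WT. The U1 genes are close copies of each other, so that these are not 18 separate measurements. RNU2-2P, the 1 measured gene of the U2 list, had 102.6 and 75.6 CPM in 52X T4A and 44.9 and 61.6 in 52X WT. Its groups did not overlap, and it had a log2 fold change of 0.74 ± 0.31 (SE, n = 2 per group, edgeR adjusted p = 0.448). Its lowest library was 52X WT replicate 1, as for 29.7% of all tested features (439 of 1480). In that library each U4 and U5 gene was highest.

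U6 is the pairing partner of U4. All 5 genes of the U6 list were tested, 2 were above 0 and 3 below, with a median of -0.03 and none called. The list held only 362 counts over all libraries. How far reads could be told apart between its genes was not analysed, so that these may not be 5 separate measurements. RNU6-9, the most abundant, had 1.26 and 0.823 CPM in 52X T4A and 0.891 and 1.33 in 52X WT, and none of the 5 was highest in 52X WT replicate 1. The minor spliceosome, which removes a rare class of introns, uses the same U5 but has its own U4 form. This form, RNU4ATAC, had 2.97 and 2.95 CPM in 52X T4A and 2.60 and 2.50 in 52X WT (edgeR log2 fold change 0.21 ± 0.35, SE, adjusted p = 0.855), without overlap of the groups. RNU12, which recognises the branch site of these introns, was the most abundant of that list, at 26.9 and 27.0 CPM in 52X T4A and 31.0 and 23.6 in 52X WT. Of the 2 genes of the 3 in that list that were tested, none was called. RNU7-1, the Sm-bound snRNA of histone mRNA processing and not a splicing RNA, had 16.1 and 16.3 CPM in 52X T4A and 16.6 and 25.6 in 52X WT (edgeR adjusted p = 0.668). RNU2-1 and RNU11 were not analysed here.

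Small Cajal body RNAs (scaRNAs) guide the chemical modification of snRNAs, and SCARNA10 is the U85 RNA, which guides it in U5. SCARNA10 had 3.47 and 2.95 CPM in 52X T4A and 4.93 and 2.50 in 52X WT, so that it too was highest in 52X WT replicate 1 and its groups overlapped (edgeR log2 fold change -0.21 ± 0.41, SE, adjusted p = 0.905). Of 48 scaRNA features 22 were tested, 11 above 0 and 11 below, with a median of 0.02 and none called. The most abundant, SCARNA15, had 1463 and 1349 CPM in 52X T4A and 1117 and 1107 in 52X WT.

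The features most like the summed families across the 4 libraries were then looked up. Likeness was the root mean square difference of log2 CPM (with 0.5 CPM added), each profile centred on its own mean, over 4 libraries and outside the lists above. The nearest included box C/D small nucleolar RNAs (SNORD genes), which guide methylation of other RNAs. For U4 they were SNORD45C (0.0681), SNORD59A (0.0799) and the Y RNA pseudogene RNY4P17 (0.0952). For U5 they were SNORD48 (0.0581), SNORD58 (0.0652) and SNORD65 (0.0853). SNORD48, for example, had 72.8 and 80.8 CPM in 52X T4A and 168.9 and 66.1 in 52X WT. That it was highest in 52X WT replicate 1 like U5 follows from its choice by this measure and is not a result. By the same measure RNU5F-1 lay at 0.0788 from the U4 sum, nearer than RNU5A-1 at 0.282, RNU5B-1 at 0.297, RNU5D-1 at 0.381 and RNU5E-1 at 0.481.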

How the data were processed

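Total RNA of 4 cultures was made into small RNA libraries. The authors deposited raw counts per feature, 1 table per library, with no normalization. Per the labels, their processing used cutadapt 4.6, Bowtie2 2.3.5.1 and featureCounts 1.5.0 with build hg38, while settings and the handling of reads with several matches are not given in the sources used here. From these counts, names were looked up by Ensembl identifier in GENCODE v44lift37 (5579 of 7062 features) or by identical RefSeq position (908). Counts were fitted with edgeR 4.0.16 in R 4.3.3 (TMM factors, filterByExpr with a minimum count of 10, quasi-likelihood test, Benjamini-Hochberg), and the tested features held 99.97% of counts. The fit was tested on simulated data. DESeq2 1.42.0 was an alternative. Sums, ratios and shares were compared by exact permutation tests, and scripts also used SciPy 1.17.1. The biological coefficient of variation was 26.0%.

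The members and lists were chosen with earlier results of these data known. Named genes were the 7 members, the most abundant gene of each list, SCARNA10 as the guide of U5, and the 3 features most like each summed family outside the lists. Alternatives were other scalings and filters, a replicate block, and leaving out each library. Promoters were not used here, and the sequences of the U5 genes are not reported here.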

Additional observations from a re-analysis of the deposited data

How the results depend on the processing

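With all 4 libraries, the direction stayed the same for all 7 U4 and U5 genes in all 63 comparisons. These took other scalings, filters, DESeq2 and the replicate block. None of the genes was called in any of them, and the lowest adjusted p was 0.277. DESeq2 gave no adjusted p for RNU5D-1, which thus had no side of the threshold there. The median log2 fold change over all features was -0.05, and became 0.13 under upper quartile factors and 0.14 when only library size was used. Leaving out 1 library gave 28 comparisons, of which 2 turned in sign and the rest kept theirs. Without 52X WT replicate 2 some differences were larger, with RNU5B-1 at -1.57. In each of these fits 1 group had a single library, and whether any of the 7 genes was called there is not reported here. RNU5D-1 ran from -0.72 to 0.10, its highest value coming without 52X WT replicate 1, and RNU5E-1 from -0.12 to 0.59, its lowest coming without 52X WT replicate 2.

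The number of called features among all tested was 2. Scaling by totals gave 9 (5 up, 4 down), and it was 0 with TMM factors from miRNA genes alone in edgeR (138 at an unadjusted p below 0.05, and 29 by DESeq2 with its own factors), 29 with no filter (7 higher, 22 lower), 29 with DESeq2 (4 higher, 25 lower) and 4 to 218 with 1 library left out, the highest coming without 52X WT replicate 2, while omitting 52X WT replicate 1 gave 35, 52X T4A replicate 1 gave 6 and 52X T4A replicate 2 gave 4. With a replicate block it was 18 (5 higher, 13 lower) and included no U4 or U5 gene. Same-numbered libraries were not shown to share a culture or day, and their deviations from the group means had a correlation of 0.0985. The cause of these differences was not tested.

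The summed U4 log2 ratio ran from -1.17 to 0.068 with 1 library left out, and that of U5 from -1.19 to 0.092, both highest without 52X WT replicate 1. With 1 library left out, the difference in the log2 ratio of U4 to U5 ran from -0.37 to 0.31, and those in the shares of RNU5A-1 and RNU5F-1 from -1.28 to 2.56 and from -4.25 to 1.79 percentage points, so that all 3 changed sign. With 2 libraries a group and 59 to 1286 counts a gene, the SE of the fitted differences was 0.38 to 0.52 log2 units, and a fitted difference of -1.0 (RNU5B-1) did not pass the test.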
